A study of Mus musculus with 35 samples.

Results

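Livers of 10 of the 21 mice in the series were compared: 6 mice that had received diethylnitrosamine (DEN) followed by a control antisense oligonucleotide (ASO) and were harvested at day 260, against 4 mice that had received DEN alone and were harvested at day 133. These mice were chosen by the names of their columns in the table of raw counts, and they account for 16 of the 35 libraries, 12 from the control-ASO mice (2 merged per mouse) and 4 from the day-133 mice. All were labelled C57Bl6, and their sex was not given in the labels. Each of the 10 had received 25 mg/kg DEN into the peritoneum at day 14. The control-ASO mice then received 50 mg/kg ASO by the same route 2 times a week between day 133 and day 260, and the day-133 mice received no ASO. The labels describe the tissue of both groups as tumours caused by DEN and the cells as hepatocellular carcinoma, and RNA came from pieces of liver, so the tumour content of each piece is not known. Levels are also given for 6 mice with the same DEN dose and an ASO against Smyd3, a lysine methyltransferase gene, and for 5 untreated mice labelled as normal liver, both harvested at day 260. The comparison follows DEN livers between the harvest days. Age, ASO injection, number of merged libraries and sequencing depth changed together between the groups and cannot be told apart, and no untreated mice of day 133 were analysed here.

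DEN is a carcinogen that needs activation by cytochrome P450 enzymes, chiefly Cyp2e1 in hepatocytes around the central vein. In mice injected in infancy it damages the DNA of hepatocytes that are still dividing, and foci, adenomas and carcinomas grow out over the following months, often with activating mutations in the Ras-MAPK pathway. Liver tumours commonly return to fetal genes such as Afp, divide, and lose part of the metabolic program of the adult hepatocyte. That program is zoned from portal to central vein, and in mice it also differs by sex through the rhythm of growth hormone secretion.

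Counts summed to between 4556484 and 6447397 per day-133 mouse and between 6789715 and 13805881 per control-ASO mouse, and the median SD of log2 expression was 0.241 and 0.248 over the 10399 genes with a mean of at least 2 log2 CPM. CPM is a gene's count relative to all counts of the library, rescaled by a fixed factor. Levels below are CPM, scaled over all 21 mice by the trimmed mean of M-values (TMM). They come from 3' tags and are compared between mice, not between genes. A level in such bulk RNA cannot separate fewer cells of a type from less RNA per cell. Hepatocyte RNA was present in all 10 mice: Hnf4a, the nuclear receptor that maintains hepatocyte identity, stood at 142, 131, 110.3 and 136 CPM in the day-133 mice and at 92.5 to 122 CPM in the control-ASO mice. This level does not tell tumour from other liver tissue. RNA of the Y-linked gene Ddx3y was present in all 10 mice, at 39.7 to 50.8 CPM at day 133 and at 44.2 to 53.3 CPM in the control-ASO mice. In 21 genes, 11 of them annotated as pseudogenes, all untreated and control-ASO mice lay apart from all day-133 and Smyd3-ASO mice by a gap of at least 2-fold. Among them were Ctse, encoding cathepsin E, at 4.73 to 14.6 CPM in control-ASO and 0 to 0.508 CPM in day-133 mice, and Paox, a polyamine oxidase, at 1.62 to 5.28 and 11.1 to 16 CPM. C1s2, a complement protease gene with one of the largest rises below, is not among the 21 and had 15.3 ± 5.2 CPM (mean ± SD, n = 5) in untreated and 1.02 ± 1.8 CPM (n = 6) in Smyd3-ASO mice. The cause of that pairing was not tested.

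Of 15297 genes tested with edgeR's quasi-likelihood test, 4132 (27.0%) passed an adjusted p of 0.05: 2200 (14.4%) rose in the control-ASO livers of day 260 and 1932 (12.6%) fell. Large fitted changes were mostly rises, with 280 genes up and 39 down by at least 8-fold. These rises include genes at or near 0 counts at day 133, where totals were lower, so their fitted fold is poorly bounded. Tceal5, with 0 counts there, had a fitted log2 change of 10.08, while its pooled counts give only a bound of at least 107-fold. Such bounds leave out the spread between mice, and this one was 92.5-fold without control-ASO mouse 2. The part of low counts and depth in this split was not tested. In 1741 genes (11.4%) every control-ASO mouse lay above every day-133 mouse, and in 1515 (9.90%) every one lay below. Scaling by library totals in place of TMM moved the median log2 change of all genes from 0.03 to 0.281 and the split to 3839 rises and 985 falls (79.6% rises against 53.2%). Counts of risen and fallen members of a gene list are therefore read against the shares above. Members at or near 0 at day 133 passed the filter on low counts through other groups and could hardly fall. This favours rises in the counts of every list that holds such members. Where a list is given below with no member in a direction, at most 1 of its members passed an unadjusted p of 0.05 in that direction, and DESeq2 and limma voom each called at most 1, except where other counts are given.

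**Figure D1:**
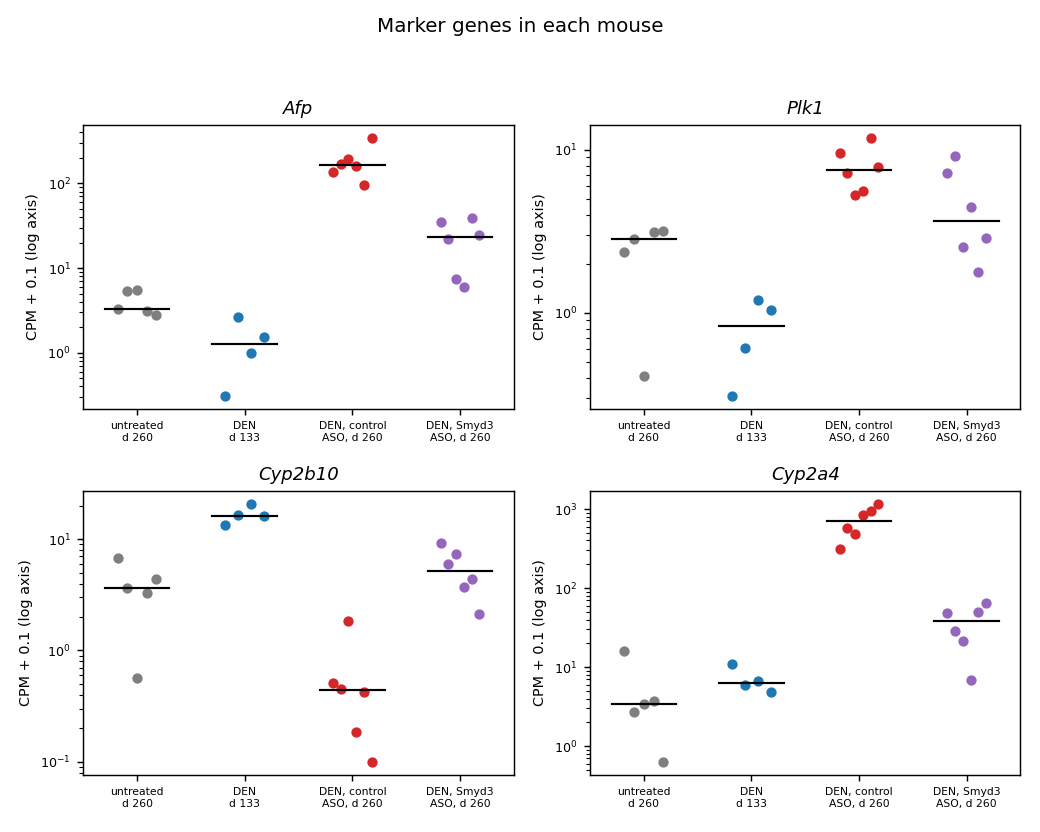
Expression of Afp, Plk1, Cyp2b10 and Cyp2a4 in CPM plus 0.1 on log axes. Each point is a mouse and each line the median of its group (5 untreated, 4 DEN day 133, 6 DEN with control ASO, 6 DEN with Smyd3 ASO). The 4 day-133 and 6 control-ASO mice do not overlap for any of the 4 genes.

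The 4 marker genes separated the groups mouse by mouse. Afp (ENSMUSG00000054932, chr5:90490737-90508907 on mm10), the fetal serum protein used as a liver cancer marker, stood at 0.21, 2.54, 0.886 and 1.42 CPM in the day-133 mice and at 94.1, 165 and 341 CPM (lowest, median and highest) in the control-ASO mice. All 6 control-ASO mice were far above all day-133 mice (log2 7.10, SE 0.58, adjusted p = 4.56e-05), with 3.94 ± 1.33 CPM in untreated and 22.2 ± 13.6 CPM in Smyd3-ASO livers. Plk1 (ENSMUSG00000030867, chr7:122159439-122169873), a kinase that drives mitosis, measured 0.21, 0.508, 1.11 and 0.946 CPM at day 133 and 5.15, 7.38 and 11.7 CPM in the control-ASO mice. It was low in each day-133 mouse and higher in each control-ASO mouse (log2 3.45, SE 0.38, adjusted p = 4.23e-05). Cyp2b10 (ENSMUSG00000030483, chr7:25897620-25926624), the classical target of the xenobiotic receptor CAR, went the other way, from 13.2, 16.4, 20.6 and 15.9 CPM to 0, 0.337 and 1.76 CPM. No control-ASO mouse reached the lowest day-133 mouse (log2 -5.23, SE 0.54, adjusted p = 8.9e-05). Cyp2a4 (ENSMUSG00000074254, chr7:26307169-26315088), a steroid hydroxylase that female livers express most, was at 10.7, 5.76, 6.65 and 4.73 CPM at day 133 and at 316, 714 and 1156 CPM in the control-ASO mice (log2 6.70, SE 0.48, adjusted p = 1.02e-05). Untreated livers of the same age had 5.14 ± 6.0 CPM, and its near-identical neighbour Cyp2a5 did not pass (log2 -1.15, SE 0.47, adjusted p = 0.0991; 0.0236 without control-ASO mouse 3). Reads shared by that pair would blur both.

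**Figure D2:**
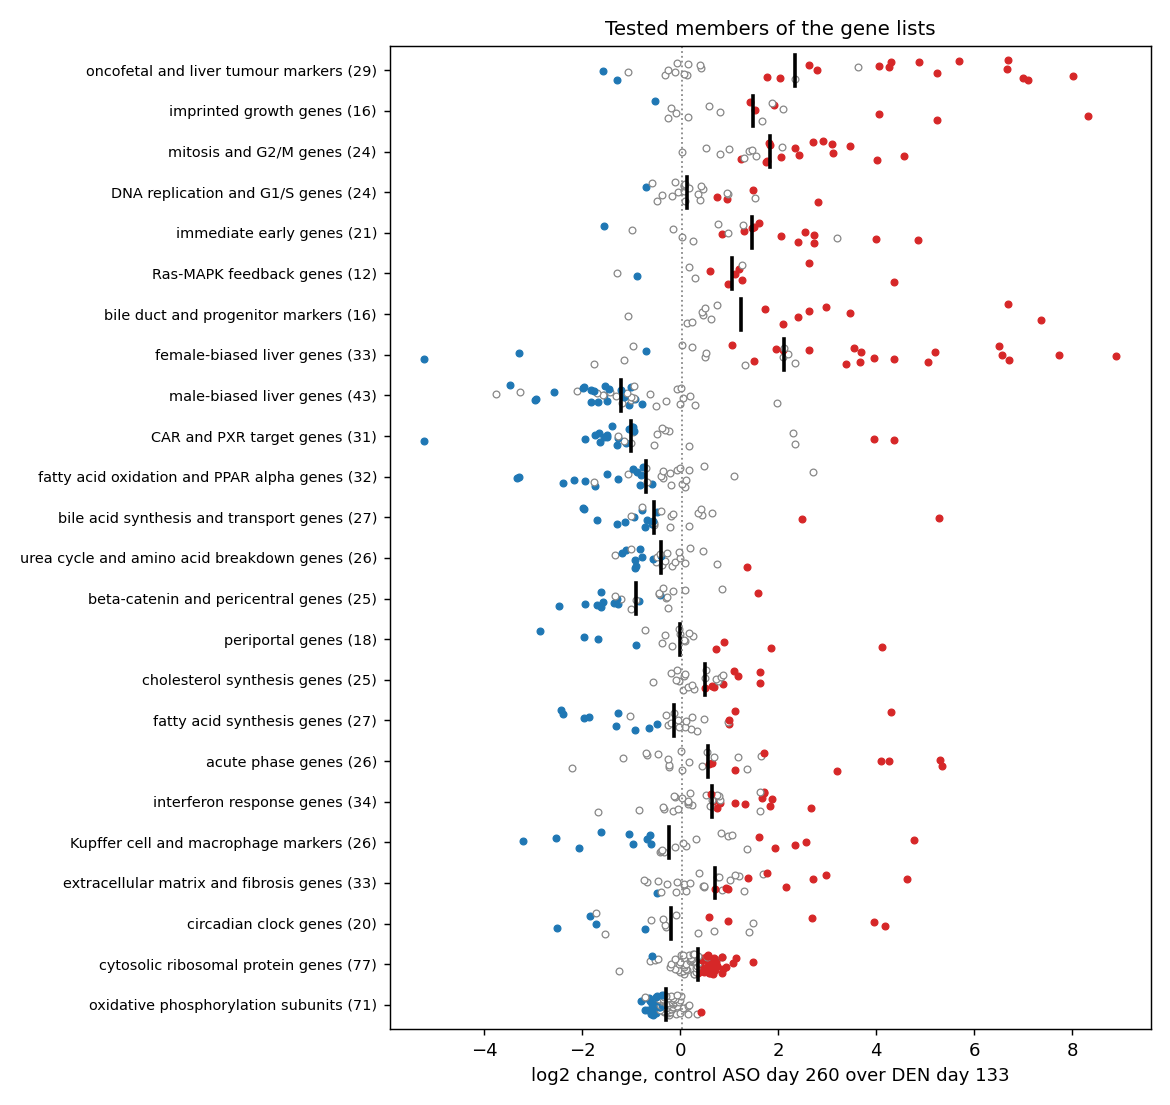
Log2 change of every tested member of 24 gene lists, control ASO day 260 over DEN day 133, with the number tested after each name. Red points rose, blue points fell, open points did not pass the test, black bars are list medians and the dotted line is the median of all genes, 0.03. Oncofetal, mitosis and female-biased lists lie mostly to the right, male-biased and CAR/PXR lists mostly to the left.

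Genes of the fetal liver and of liver tumours were among the largest rises. Of 29 tested members, 15 rose and 2 fell, with a median log2 change of 2.34 (10 rises with limma voom). Igf2bp1, Lin28b, Sall4 and Peg10 of this list were not tested. Members near 0 at day 133, such as Akr1c18, entered through other groups, which favours rises in these counts. Gpc3, a cell surface proteoglycan of fetal liver and liver cancer, was at 1.05, 0, 0 and 1.42 CPM at day 133 and at 34.1, 53.4 and 147 CPM in the control-ASO mice (log2 6.67, SE 0.79, adjusted p = 0.000505). Akr1c18, a progesterone-inactivating reductase, rose from 0, 0.508, 0.665 and 0.315 to 31.7, 44.5 and 80.6 CPM, and Tspan8, a tetraspanin of gut and tumour epithelia, from 0.631, 0, 0.665 and 1.1 to 37.2, 53.9 and 107 CPM. For each of these 3 genes the highest day-133 mouse was below 2 CPM and the groups did not overlap. Tff3, a trefoil peptide of mucous epithelia, changed by 5.69 on the log2 scale, from 9.25, 2.37, 4.21 and 2.68 CPM at day 133 to 156, 195 and 347 CPM. Scd2, the desaturase isoform of fetal liver, changed by 4.31, Spink1, a trypsin inhibitor, by 4.86, and Golm1, a Golgi membrane protein secreted by liver tumours, by 2.79. Bex1 was counted 2 times over all day-133 mice and 1996 times over the control-ASO mice, a ratio of 305 (95% interval 84.3 to 2521, counting error only). The calls of Bex1 and Spink1 ended under limma voom. Cd44 and Mdk, surface and growth factor genes often raised in tumours, overlapped between the groups and did not pass (0.08 and 0.39 on the log2 scale). The members that fell were Glul (log2 -1.58, SE 0.32, adjusted p = 0.0040), a target of beta-catenin, and Abcc4 (log2 -1.29, SE 0.26, adjusted p = 0.0022), an exporter of nucleotides and bile salts. Glul, which makes glutamine in the last layer of cells before the central vein, was at 487, 537, 463 and 614 CPM at day 133 and 83.7, 163 and 302 CPM in the control-ASO mice, with no overlap.

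Of 16 imprinted genes that act on growth, 6 rose and 1 fell, with a median log2 change of 1.48 (3 rises without day-133 mouse 2 or 4 and with limma voom). H19, a maternally expressed long RNA of fetal liver, stood at 0, 1.35, 1.11 and 0.631 CPM in the day-133 mice and 67.4, 220.2 and 589 CPM in the control-ASO mice (log2 8.33, SE 1.05, adjusted p = 0.000735). Its neighbour Igf2, the fetal insulin-like growth factor, reached only 1.01, 2.88 and 8.18 CPM against 0, 0.339, 0.443 and 0.158 CPM, yet again without overlap (log2 4.05, SE 0.82, adjusted p = 0.00329); Gm49394 overlaps it on the same strand with nearly the same count in the control-ASO mice (277 against 285), so these reads cannot be told apart. Dlk1, a Notch-related surface protein of hepatoblasts, ran from 0.918 to 30.4 CPM among control-ASO mice and from 0 to 0.508 CPM among day-133 mice (log2 5.25, SE 1.54, adjusted p = 0.0345), and this call was lost without any one of the day-133 mice and without control-ASO mouse 1 or 4. H19 varied among the control-ASO mice by more than 8-fold, and so did Igf2 and Dlk1. Meg3, on the same imprinted cluster as Dlk1, overlapped between the groups and did not pass (log2 0.81, SE 0.56, adjusted p = 0.32), nor did Igf2r, a growth-limiting receptor (log2 -0.10, SE 0.13, adjusted p = 0.631). Cdkn1c, an inhibitor of cell division, missed the threshold although its groups did not overlap (log2 1.67, SE 0.64, adjusted p = 0.0676), and its adjusted p was 0.0369 without day-133 mouse 2. The single member that fell was Slc38a4, an amino acid transporter (log2 -0.51, SE 0.16, adjusted p = 0.0264). Its call ended under library totals (log2 -0.26), without day-133 mouse 2 or 4 and without control-ASO mouse 4 or 5. Without day-133 mouse 3, 2 members of the list fell.

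Genes of mitosis moved in 1 direction. Of 24 tested, 15 rose, none fell, and all 24 had a positive log2 change (median 1.82). In 13 the groups did not overlap. Bub1, Cenpe, Kif11, Nusap1, Ttk and Ndc80 of this list were not tested. Members near 0 at day 133, such as Ccnb1, passed the filter on low counts through other groups, which favours rises in these counts. The promoters of 5 members are printed because mitosis genes are known for a shared pair of elements, the CCAAT box bound by NF-Y and the cell cycle element TTTGAA bound by the DREAM complex and by B-MYB with FOXM1. Each line gives the 120 bases before the start of transcription in the direction of the gene, from RefSeq on GRCm38.p6, with capitals for CCAAT or its reverse complement ATTGG, and also for the element TTTGAA or, on the other strand, TTCAAA.
Plk1 (chr7:122159315-122159434, plus strand): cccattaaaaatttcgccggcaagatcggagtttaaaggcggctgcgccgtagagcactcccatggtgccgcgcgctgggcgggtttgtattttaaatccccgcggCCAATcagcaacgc
Ccnb1 (chr13:100786487-100786606, minus strand): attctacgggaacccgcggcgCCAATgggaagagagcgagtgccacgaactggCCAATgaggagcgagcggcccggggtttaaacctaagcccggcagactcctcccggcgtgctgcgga
Cdc20 (chr4:118437344-118437463, minus strand): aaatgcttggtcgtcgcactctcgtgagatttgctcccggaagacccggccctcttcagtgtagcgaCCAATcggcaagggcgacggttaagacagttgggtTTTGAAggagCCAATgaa
Top2a (chr11:99024190-99024309, minus strand): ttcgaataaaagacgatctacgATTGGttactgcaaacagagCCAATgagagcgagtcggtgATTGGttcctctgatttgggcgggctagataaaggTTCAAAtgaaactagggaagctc
Ube2c (chr2:164769809-164769928, plus strand): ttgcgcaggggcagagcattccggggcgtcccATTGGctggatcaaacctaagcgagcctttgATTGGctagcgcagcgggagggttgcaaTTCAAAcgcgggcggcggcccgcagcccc
RefSeq promoters, 250 bases before to 50 after the start, matched 19 of the 24 tested members. CCAAT in either direction lay in 15 of the 19 and TTTGAA in either direction in 15 of the 19. Of 32851 promoters of that length, 37.4% held CCAAT and 17.9% held TTTGAA; among the 10169 tested genes with a promoter the shares were 43.0% and 14.8%. Among the 12 risen members with a promoter, 10 held CCAAT and 10 held TTTGAA. In Plk1 the TTTGAA match lies after the start of transcription, outside the stretch shown. Ccnb1 held no TTTGAA match anywhere in the window searched. A match describes these letters only.

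The members named here act at different steps of division. Ccnb1, the cyclin that starts mitosis, was counted 2 times over the day-133 mice and 182 times over the control-ASO mice (ratio 27.8, 95% interval 7.59 to 231). Cdc20, the activator of the anaphase-promoting complex, was at 2.1, 2.03, 0.886 and 1.58 CPM at day 133 and 4.87, 7.46 and 14.2 CPM in the control-ASO mice (log2 2.41, SE 0.36, adjusted p = 0.000347). Ube2c, the ubiquitin-conjugating enzyme of that complex, stood at 0, 0.847, 1.11 and 0.631 and 2.1, 4.59 and 8.3 CPM (log2 2.91, SE 0.56, adjusted p = 0.00196). Top2a, which untangles chromosomes, was at 0.631, 1.69, 1.11 and 2.84 CPM and then 4.27, 5.59 and 7.83 CPM (log2 1.81, SE 0.34, adjusted p = 0.00153). For these 4 genes the lowest control-ASO mouse exceeded the highest day-133 mouse. Birc5 and Racgap1, which act at the spindle midzone and in cytokinesis, changed by 1.23 and 3.09, Cenpf, a kinetochore protein, by 3.11, and the proliferation marker Mki67 by 2.35 on the log2 scale. Aurka, a spindle pole kinase, and Anln, which shapes the cleavage furrow, lost their calls without single mice, Aurka without day-133 mouse 1 or 3 and Anln without day-133 mouse 2. Cdk1, the kinase partner of Ccnb1, did not pass and overlapped (log2 0.81, SE 0.34, adjusted p = 0.0948). Of 24 genes of DNA replication and the G1/S step 4 rose and 1 fell, with a median of 0.13 (2 rises without day-133 mouse 1 or 4 or control-ASO mouse 5 and with limma voom, and 2 falls without control-ASO mouse 3 or 5). The member that fell was Pcna, the sliding clamp of the replication fork (log2 -0.70, SE 0.18, adjusted p = 0.011). Pcna lost its call under library totals and without day-133 mouse 2. Summed over the tested mitosis genes, levels were 15.06 to 29.5 CPM (median 23.4) at day 133 and 49.3 to 106.7 CPM (median 77.6) in the control-ASO mice. The same sum was 18.05 to 65.7 CPM (median 53.7) in untreated livers of day 260 and 25.25 to 76.8 CPM (median 51.7) in Smyd3-ASO livers. Cdc20 averaged 9.04 ± 4.03 CPM in untreated livers of day 260 and 3.52 ± 1.98 CPM in Smyd3-ASO livers. These untreated and Smyd3-ASO levels were not tested against day 133.

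**Figure D3:**
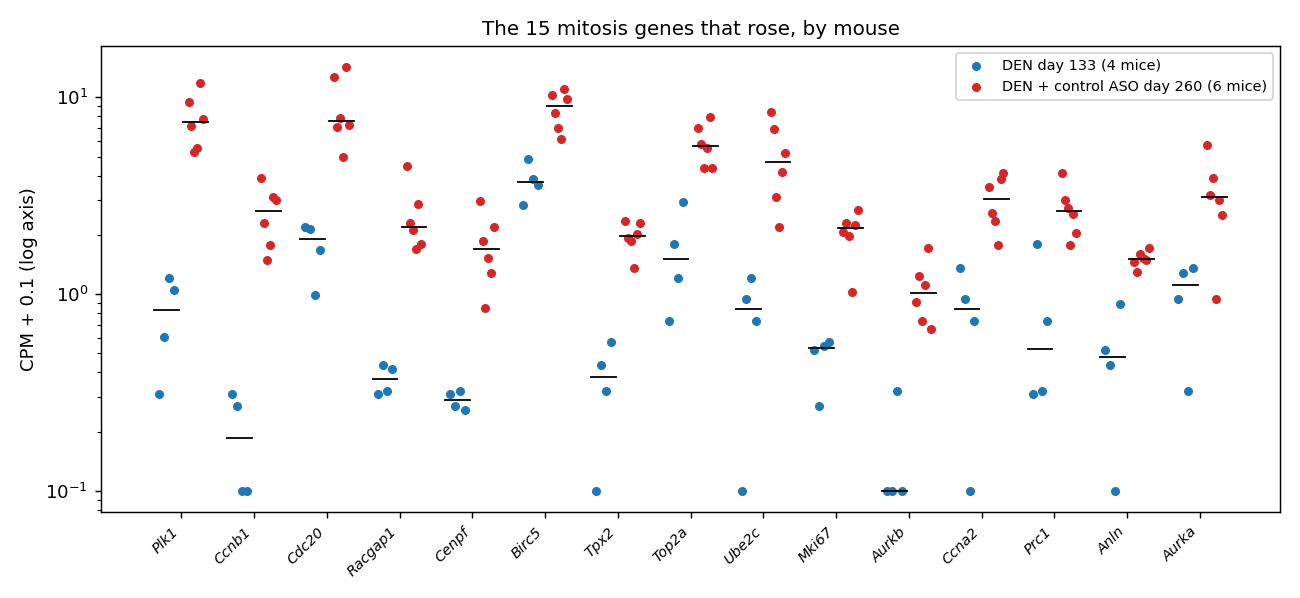
CPM plus 0.1 on a log axis for the 15 mitosis genes that rose, ordered by adjusted p. Blue points are the 4 day-133 mice, red points the 6 control-ASO mice and black lines group medians. From Plk1 to Ccna2 and for Anln the groups do not overlap; Prc1 and Aurka overlap.

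Immediate early genes, which encode transcription factors switched on within minutes of growth factor or stress signals, rose in 12 of 21 cases and fell in 1 (median 1.47; 3 falls without control-ASO mouse 1, 2 with DESeq2 and none without day-133 mouse 4 or control-ASO mouse 5). Egr1, a zinc finger factor, was at 6.31, 4.06, 3.99 and 9.31 CPM in the day-133 mice and 52.2, 185 and 255 CPM in the control-ASO mice (log2 4.85, SE 0.52, adjusted p = 0.000215). Junb, a subunit of AP-1, was at 9.25, 5.08, 5.54 and 5.05 and 25.8, 35.7 and 44.2 CPM (log2 2.55, SE 0.22, adjusted p = 5.27e-06). Ier2, a nuclear protein induced by growth factors, was at 8.41, 7.45, 8.64 and 8.36 and 23, 30.5 and 53.2 CPM (log2 2.06, SE 0.23, adjusted p = 4.56e-05). None of these 3 genes overlapped between the groups, and the lowest control-ASO mouse was always more than 2-fold above the highest day-133 mouse. Smyd3-ASO livers also had Egr1 at 209.8 ± 118 CPM, whereas untreated livers had 4.14 ± 4.27 CPM. Fos itself did not pass (log2 3.20, SE 1.16, adjusted p = 0.0741); control-ASO mouse 1 reached 55.3 CPM against a group median of 5.55 CPM, and without that mouse the adjusted p was 0.024. The member that fell was Myc (log2 -1.55, SE 0.48, adjusted p = 0.0282), which was at 7.57 CPM in day-133 mouse 4 and under 2 CPM in the other 3; without mouse 4 its log2 change was -0.56 and its adjusted p was 0.377. The AP-1 motif TGANTCA, on either strand, lay in 0 of the 18 promoters matched to this list, against 6.65% of tested genes and 7.81% of all promoters, a description of this window only.

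Feedback inhibitors and targets of the Ras-MAPK pathway showed 7 rises and 1 fall among 12 genes (median 1.05). Their summed level, in which abundant members weigh most, went the other way with overlap. It was 660.5 to 827.6 CPM (median 741.8) at day 133 and 344.7 to 763.2 CPM (median 556.7) in the control-ASO mice. Dusp5, a phosphatase that retains and inactivates ERK in the nucleus, was at 0.21, 0.339, 0.665 and 0.473 CPM at day 133 and 3.02, 7.01 and 15.9 CPM in the control-ASO mice (log2 4.37, SE 0.60, adjusted p = 0.000311). Spry4 and Spred2, membrane inhibitors of Ras signalling, changed by 2.63 (4.25 without day-133 mouse 4) and 1.19, the ETS factor Etv5 by 1.11, and Ccnd1, the cyclin of early G1, by 0.98 on the log2 scale. Dusp6, the cytoplasmic ERK phosphatase, was at 95.4, 46.2, 36.3 and 31.2 CPM at day 133, so its groups overlapped through mouse 1 (log2 1.26, SE 0.36, adjusted p = 0.0254), and its call ended without day-133 mouse 2, 3 or 4 or control-ASO mouse 2. Errfi1, the inhibitor of EGF receptors, was the fall (log2 -0.89, SE 0.29, adjusted p = 0.0413), and this call was lost under library totals, without any one of the day-133 mice and without control-ASO mouse 4, 5 or 6; 2 members fell with DESeq2 and when all 4 groups were fitted together. Targets of p53, the DNA damage factor, gave 4 rises and 1 fall among 22, near the shares of all genes (2 falls without control-ASO mouse 1). Bax, which permeabilizes mitochondria, was at 0.42, 1.19, 1.33 and 0.789 CPM at day 133 and at 6.91, 8.27 and 10.3 CPM in the control-ASO mice (log2 3.17, SE 0.27, adjusted p = 5.27e-06). By contrast Cdkn1a and Mdm2, the usual readouts of p53, overlapped and did not pass (-0.80 and -0.05 on the log2 scale), and Plk3, a stress kinase, fell from 54.7, 73.3, 94.4 and 195 to 13.7, 19.8 and 29.5 CPM (log2 -2.31, SE 0.36, adjusted p = 0.00158).

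Markers of bile duct and progenitor cells rose in 8 of 16 cases with no fall (median 1.24), and their summed level was 37.5 to 66.8 CPM in the day-133 mice and 149.7 to 331.4 CPM in the control-ASO mice. Tspan8, described above, made part of that sum. Spp1, osteopontin, was at 8.83, 5.42, 4.43 and 6.62 CPM at day 133 and 26.5, 48.6 and 74 CPM in the control-ASO mice (log2 2.98, SE 0.33, adjusted p = 0.000105). Krt23, a keratin of injured ducts, was at 0.631, 0.339, 1.99 and 0.631 and 3.47, 10.3 and 13.8 CPM (log2 3.47, SE 0.50, adjusted p = 0.000421). Cldn7, a tight junction protein, was at 0 in all day-133 mice. Its pooled counts make it at least 16.5-fold higher in the control-ASO mice (11.9-fold without control-ASO mouse 6). The defining duct markers did not follow: Krt7 and Krt19 were too low to be tested, Epcam reached at most 0.749 CPM in the control-ASO mice (log2 -1.06, SE 0.69, adjusted p = 0.276) and Sox9 overlapped (log2 0.49, SE 0.33, adjusted p = 0.291). The part of duct cells in these rises was not tested.

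**Figure D4:**
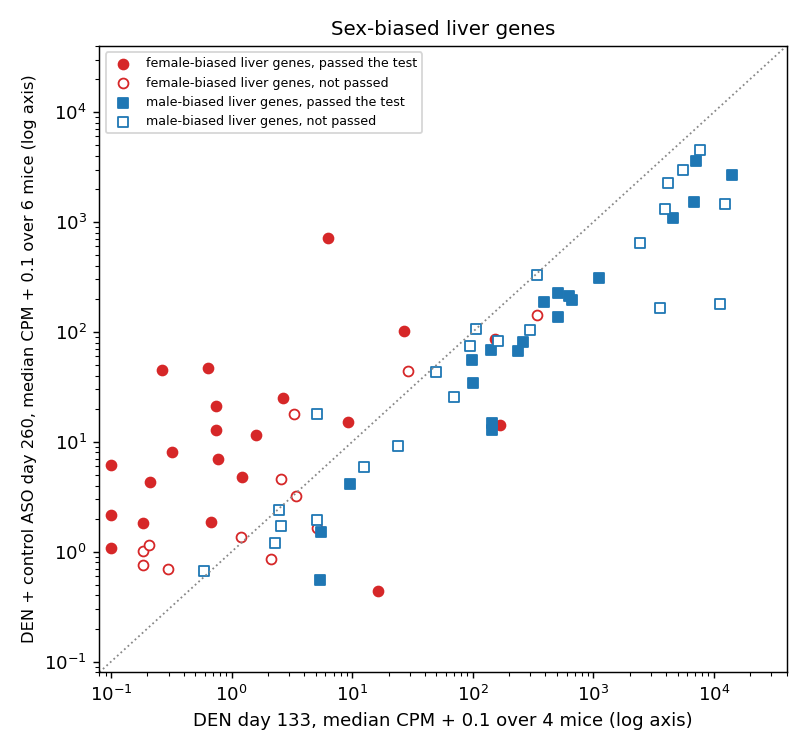
Median CPM plus 0.1 on log axes, 4 day-133 mice on the horizontal and 6 control-ASO mice on the vertical axis, for 33 female-biased and 43 male-biased liver genes. Filled symbols passed the test. Most female-biased genes lie above the dotted line of equal values, most male-biased genes below it.

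Liver genes that differ between the sexes moved toward the female side of the scale, in animals whose 4 tested Y-linked genes did not pass the test with edgeR (1 was lower at an unadjusted p of 0.05, DESeq2 called 0, library totals called 1 higher, and 1 was called lower without control-ASO mouse 3). Of 33 female-biased genes 18 rose and 3 fell (median 2.12), and of 43 male-biased genes 20 fell and none rose (median -1.21). Cyp2b9, a female P450, was at 0.631, 1.52, 0.665 and 0.631 CPM at day 133 and 10.0, 12.8 and 19.7 CPM in the control-ASO mice (log2 3.96, SE 0.31, adjusted p = 2.4e-06). Cyp3a41a, another female P450, was at 0.42, 0.169, 0 and 0.158 and 10.9, 45.1 and 65.8 CPM (log2 7.74, SE 0.78, adjusted p = 0.000137). Abcd2, which imports fatty acids into peroxisomes, was at 1.47, 2.71, 2.44 and 3.0 and 16.1, 24.8 and 35.3 CPM (log2 3.38, SE 0.26, adjusted p = 2.12e-06). All 6 control-ASO mice lay above all day-133 mice for these 3 genes, and the Smyd3-ASO mice averaged 0.758 ± 0.485, 1.25 ± 1.08 and 2.78 ± 1.52 CPM. Cyp3a16, counted 0 times at day 133 and 479 times in the control-ASO mice, was at least 48.8-fold higher by pooled counts (41.1-fold without control-ASO mouse 2). It was not called by limma voom or without a filter on low counts. Copies of the Cyp3a and Cyp2b families are near-identical, so reads could be split among them. The exceptions that fell were Cyp2b10, Cyp4a14 (log2 -3.29, SE 0.51, adjusted p = 0.0019) and Lifr, a cytokine receptor (log2 -0.70, SE 0.17, adjusted p = 0.00684). With limma voom 10 female-biased genes rose, and without control-ASO mouse 3 or with DESeq2 5 fell. A single male-biased gene rose without day-133 mouse 3 or control-ASO mouse 1, with DESeq2 and under library totals.

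On the male side, Ugt2b38, a glucuronosyl transferase, went from 9.25, 5.93, 2.66 and 4.73 CPM at day 133 to 0.322, 0.456 and 0.706 CPM (log2 -3.47, SE 0.36, adjusted p = 2.54e-05). Keg1, a glycine acyltransferase-like gene, went from 105, 96.5, 89.9 and 112 to 21.4, 34.1 and 47.8 CPM (log2 -1.55, SE 0.22, adjusted p = 0.000305). Cyp2d9, a male steroid hydroxylase, was at 1086, 967, 1152 and 1151 CPM at day 133 and at 147, 309 and 473 CPM in the control-ASO mice (log2 -1.82, SE 0.25, adjusted p = 0.000235). C6, a component of the membrane attack complex, changed by -1.05 on the log2 scale and Cyp4a12b, a fatty acid hydroxylase, by -2.97. None of these 5 overlapped, and Cyp4a12b has a near-identical copy. Hsd3b5, a male-specific steroid reductase, did not pass (log2 -1.30, SE 0.65, adjusted p = 0.175). Ghr, the growth hormone receptor, was at 299.6, 394, 339.8 and 429 CPM at day 133 and 94.2, 158 and 197 CPM in the control-ASO mice (log2 -1.26, SE 0.20, adjusted p = 0.000595), with no overlap; Stat5b, which carries the male pulse of growth hormone into the nucleus, fell by 0.48 on the log2 scale, and this call was lost under library totals and without day-133 mouse 1 or 2. Of 16 genes of the growth hormone axis 2 rose and 3 fell, near the shares of all genes (1 fall without day-133 mouse 1 and under library totals, and 1 rise when all 4 groups were fitted together). Its targets Igf1 (log2 -0.18, SE 0.16, adjusted p = 0.426) and Socs2 (log2 -1.17, SE 0.58, adjusted p = 0.17) did not pass, and neither did Bcl6, a repressor of female genes (log2 -0.50, SE 0.64, adjusted p = 0.609), with an adjusted p of 0.0307 without control-ASO mouse 3. Prlr, the prolactin receptor, rose (log2 1.29, SE 0.29, adjusted p = 0.00773).

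Many genes of drug and foreign compound metabolism fell. Of 31 genes under the nuclear receptors CAR and PXR, 17 fell and 2 rose (median -1.02), and the 2 that rose were the female P450 genes Cyp2b9 and Cyp2b13 (4 rises under library totals, 1 with limma voom). The receptor genes themselves fell without overlap: Nr1i2, encoding PXR, from 68.7, 71, 74.9 and 76.2 to 28.9, 33.3 and 45.9 CPM (log2 -1.05, SE 0.13, adjusted p = 7.06e-05), and Nr1i3, encoding CAR, from 41, 55.4, 69.8 and 81.5 to 26.6, 31.6 and 34 CPM (log2 -1.01, SE 0.17, adjusted p = 0.000639). Cyp3a11, the main PXR-induced P450, changed by -1.49 and Ugt2b34 and Ugt1a1, which conjugate drugs and bilirubin, by -1.39 and -0.97 on the log2 scale. Alas1, the first enzyme of heme synthesis on which P450 enzymes depend, was at 204, 337, 252 and 474 CPM at day 133 and 19.1, 50.9 and 67 CPM in the control-ASO mice (log2 -2.77, SE 0.39, adjusted p = 0.000803). Of 26 targets of the oxidative stress factor NRF2, 9 fell and 3 rose (5 and 5 under library totals; 1 rise when all 4 groups were fitted together). Ephx1, microsomal epoxide hydrolase, fell (log2 -1.49, SE 0.17, adjusted p = 5.28e-05), Hmox1, heme oxygenase, rose (log2 1.40, SE 0.25, adjusted p = 0.00117), and Nqo1 and Gclc, a quinone reductase and a gene of glutathione synthesis, did not pass (0.30 and 0.11). Without day-133 mouse 2 or control-ASO mouse 4, 5 members fell.

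Fatty acid oxidation and the targets of the fasting receptor PPAR alpha included 14 falls and no rise among 32 genes (median -0.70; 1 rise without control-ASO mouse 1 or 3, with DESeq2 and when all 4 groups were fitted together, and 2 under library totals). Cyp4a10, an omega-hydroxylase, was at 46.2, 77.9, 72 and 191 CPM at day 133 and 6.3, 7.89 and 17.9 CPM in the control-ASO mice (log2 -3.33, SE 0.44, adjusted p = 0.000725). Acot1, an acyl-CoA thioesterase, was at 27.5, 26.6, 22.6 and 47.3 and 2.75, 5.1 and 9.93 CPM (log2 -2.39, SE 0.33, adjusted p = 0.00048). For both the highest control-ASO mouse was below the lowest day-133 mouse, and Smyd3-ASO livers averaged 42.6 ± 26.1 and 16.2 ± 5.37 CPM. Angptl4, a secreted lipase inhibitor, changed by -2.17 and Cpt2, a mitochondrial carnitine transferase, by -1.28 on the log2 scale. Ppara itself did not pass, at 23.3, 18, 22.4 and 27.4 CPM at day 133 and 13.7, 21.5 and 37.5 CPM in the control-ASO mice, nor did Cpt1a, the gatekeeper of mitochondrial import (log2 0.12, SE 0.15, adjusted p = 0.584). Untreated livers averaged 61 ± 84.4 CPM of Cyp4a10 and 8.59 ± 4.29 CPM of Acot1, which were not tested. Cyp4a10 and Cyp4a14 are similar in sequence, so reads could be split between them.

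Pericentral genes mostly moved down, while periportal genes moved in both directions. Of 25 pericentral and beta-catenin genes 11 fell and 1 rose (median -0.90), and of 18 periportal genes 4 fell and 4 rose (median -0.01, 0.24 under library totals). Cyp27a1, which starts the acidic route of bile acid synthesis, was at 167, 171, 181 and 189 CPM at day 133 and 40.3, 53.1 and 74.9 CPM in the control-ASO mice (log2 -1.71, SE 0.16, adjusted p = 1.21e-05). Ces3a, a carboxylesterase, was at 833, 829.9, 966 and 935 CPM at day 133 and at 143, 265 and 468 CPM in the control-ASO mice (log2 -1.61, SE 0.26, adjusted p = 0.000723). Cyp2e1, the enzyme that activates DEN, changed by -1.36 and Cyp1a2 by -2.48 on the log2 scale, both without overlap. The call of Cyp2e1 ended without a filter on low counts. The direct beta-catenin targets Axin2 (log2 -0.25, SE 0.55, adjusted p = 0.778) and Lgr5 (log2 -1.20, SE 0.53, adjusted p = 0.112; 0.0231 without control-ASO mouse 3) did not pass, and Rnf43, a feedback inhibitor of Wnt receptors, rose from 1.89, 2.03, 3.1 and 1.89 to 4.94, 5.98 and 8.93 CPM (log2 1.58, SE 0.27, adjusted p = 0.000848). Of portal genes, Cyp2f2 fell from 844, 607, 719.7 and 599.5 to 110.3, 197 and 368 CPM (log2 -1.69, SE 0.28, adjusted p = 0.00115), and Apoa4, an apolipoprotein, rose from 40.6, 25.2, 39 and 21.9 to 205, 515 and 899.5 CPM (log2 4.11, SE 0.52, adjusted p = 0.000561). Neither overlapped.

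**Figure D5:**
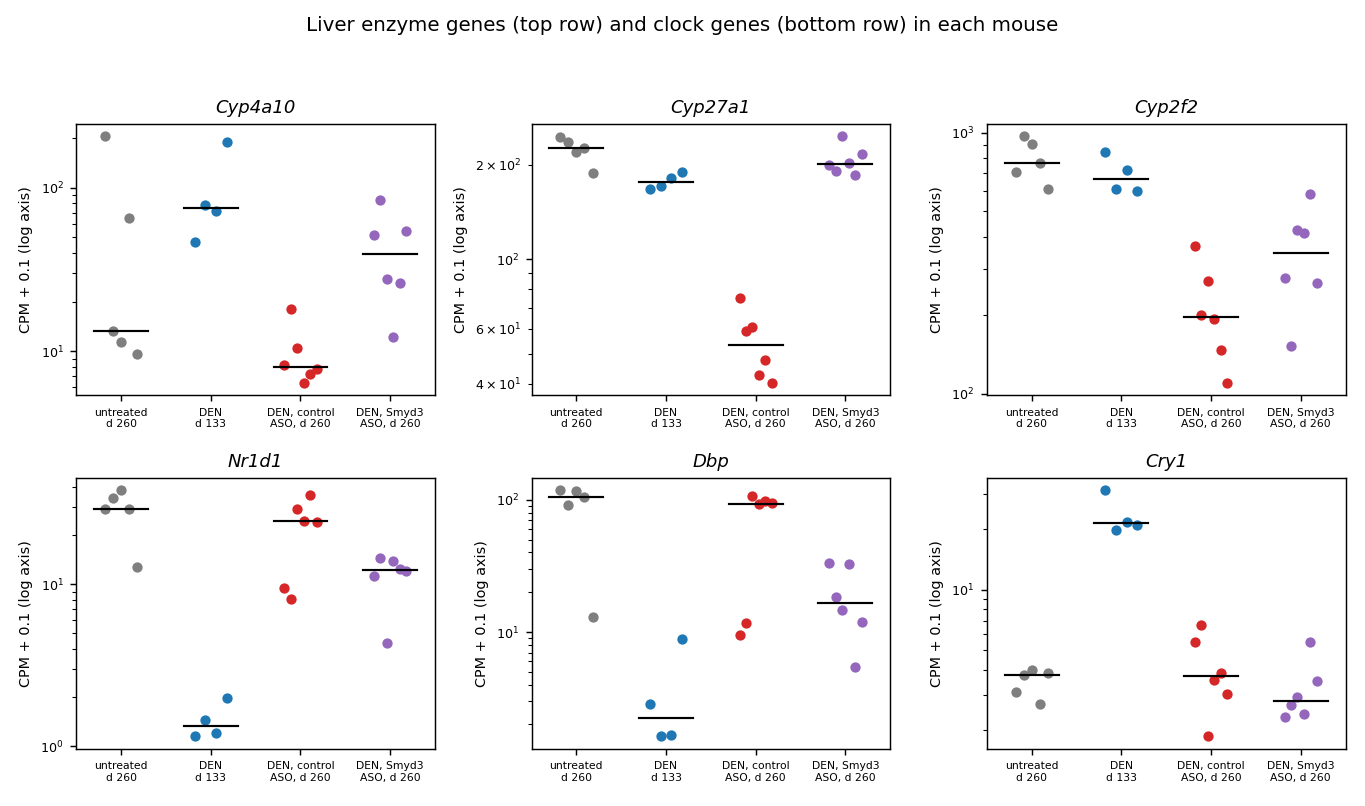
CPM plus 0.1 on log axes for liver enzyme genes (Cyp4a10, Cyp27a1, Cyp2f2) and clock genes (Nr1d1, Dbp, Cry1). Each point is a mouse, each line a group median, in the same 4 groups as for the marker genes. For all 6 genes the 4 day-133 mice lie apart from the 6 control-ASO mice; control-ASO mice 1 and 2 are the low pair for Nr1d1 and Dbp.

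Nitrogen and bile acid handling fell in part. Among 26 genes of the urea cycle and amino acid breakdown 9 fell and 1 rose (median -0.40; 4 rises under library totals and 2 with DESeq2). Asl, which splits argininosuccinate, changed by -0.91 and Slc25a13, the mitochondrial aspartate carrier, by -1.11 on the log2 scale, while Cps1 and Arg1, the first and last enzymes of the cycle, did not pass (0.09 and -0.16). Agxt, which detoxifies glyoxylate, was the rise (log2 1.36, SE 0.17, adjusted p = 7.92e-05). Of 27 bile acid genes 12 fell and 2 rose (median -0.54; 4 rises under library totals, and 1 with limma voom, without a filter on low counts and without day-133 mouse 1, 3 or 4 or control-ASO mouse 2, 3, 5 or 6). Slco1a4, a bile salt importer, was at 209, 187, 197 and 263 CPM at day 133 and 25.4, 51 and 93.1 CPM in the control-ASO mice (log2 -1.996, SE 0.32, adjusted p = 0.00147). Akr1d1, the steroid reductase of the pathway, went from 42.3, 34.7, 31.9 and 42.4 to 10.7, 15.3 and 23.6 CPM (log2 -1.13, SE 0.20, adjusted p = 0.00113). Cyp39a1, an oxysterol hydroxylase, moved against the list, from 1.68, 2.03, 3.54 and 1.89 to 5.91, 14.1 and 18.2 CPM (log2 2.49, SE 0.36, adjusted p = 0.000321). Cyp7a1, the rate-limiting enzyme of bile acid synthesis, fell with overlap (log2 -0.95, SE 0.25, adjusted p = 0.0172), and this call was lost without day-133 mouse 4; Abcb11, the bile salt export pump, did not pass (log2 -0.22, SE 0.17, adjusted p = 0.37). Hepatocyte transcription factors included 9 falls and 2 rises among 28 genes (median -0.37). Without day-133 mouse 4 there were 5 falls, and under library totals 4 falls and 3 rises; 1 member rose without day-133 mouse 1, 2 or 3, with thinned counts and when all 4 groups were fitted together. Onecut1, a factor of early hepatocyte development, fell by 1.85 on the log2 scale, and this call was lost without day-133 mouse 4. Cebpa, a factor of mature hepatocytes, did not pass (log2 0.20, SE 0.19, adjusted p = 0.456). Hnf4a did not pass either (log2 -0.32, SE 0.12, adjusted p = 0.0658; 0.0422 without day-133 mouse 3 and 0.0449 without control-ASO mouse 4).

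Genes of lipid synthesis changed in both directions, with counts that depended on the scaling and on single mice. Of 25 cholesterol genes 8 rose and none fell (median 0.51); the number was 5, 4 and 4 without day-133 mouse 1, 2 or 3, and 14 without control-ASO mouse 2. It was 13 under library totals and 5 when all 4 groups were fitted together, and 1 member fell in that fit, with DESeq2 or limma voom and without control-ASO mouse 1 or 3. Sqle, squalene epoxidase, was at 11.8, 6.94, 9.3 and 6.94 CPM at day 133 and 15.8, 26.7 and 39 CPM in the control-ASO mice (log2 1.64, SE 0.24, adjusted p = 0.00031). Srebf2, the factor that drives the pathway, was at 14.3, 9.32, 13.5 and 10.7 and 19.4, 25.4 and 31.3 CPM (log2 1.09, SE 0.17, adjusted p = 0.000503). Both were without overlap. Of 27 fatty acid synthesis genes 9 fell and 4 rose, against 4 falls and 7 rises under library totals, and between 3 and 5 fell without day-133 mouse 1, 2 or 4 or control-ASO mouse 1, 2, 5 or 6. Srebf1, the insulin-driven factor, and Elovl5, an elongase, rose (1.12 and 1.00), Lpin1, a phosphatidate phosphatase, and Plin4, a droplet protein, fell (-1.96 and -2.40), and Fasn and Scd1 did not pass (-0.04 and -0.13 on the log2 scale). Lpl, a lipase that the adult liver normally keeps low, rose from 49, 38.3, 43.4 and 48.6 to 232, 432 and 794 CPM (log2 3.34, SE 0.37, adjusted p = 0.000122). Of 28 genes of glucose and glycogen metabolism 6 fell and none rose (median -0.09; 0.15 under library totals, with 3 falls and 3 rises), and 3 fell without day-133 mouse 1 or 3, while 1 rose without control-ASO mouse 1, 2 or 6 and with other filters on low counts. Pygl, liver glycogen phosphorylase, changed by -1.11 and Gbe1, the glycogen branching enzyme, by -0.78 on the log2 scale.

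Among secreted plasma proteins rises outnumbered falls. Of 29, 8 rose and 2 fell (median 0.35, with 19 rises and 1 fall under library totals, and 1 fall when all 4 groups were fitted together). Alb, serum albumin, changed by 0.72 on the log2 scale without overlap. Serpina1a, an antitrypsin, changed by 2.20 and its paralogue Serpina1e by -1.99; the family is near-identical, so reads could be split among its copies. Apob, the protein of very low density lipoprotein, was at 23.3, 19.3, 18.4 and 21.1 CPM at day 133 and 69.2, 92.6 and 151 CPM in the control-ASO mice (log2 2.26, SE 0.22, adjusted p = 1.91e-05). Acute phase genes rose in 9 of 26 cases with no fall (median 0.57). When all 4 groups were fitted together 4 rose and 1 fell; 1 also fell with DESeq2 or limma voom, 3 fell without control-ASO mouse 1, 2 without mouse 3 and 1 without mouse 4. Il1rn, the interleukin 1 receptor antagonist, was at 1.47, 1.86, 3.54 and 0.789 CPM and then 33.4, 77.1 and 109 CPM (log2 5.34, SE 0.47, adjusted p = 5.02e-05). Mt2, a zinc-binding metallothionein, was at 7.15, 7.45, 8.42 and 15.5 and 62, 379 and 678 CPM (log2 5.31, SE 0.73, adjusted p = 0.00109), and Lcn2, an iron-sequestering protein, at 15.1, 9.15, 6.2 and 8.04 and 61.8, 159 and 340.4 CPM (log2 4.25, SE 0.59, adjusted p = 0.00105). All 3 lay apart between the groups, but untreated livers spanned 16.3 to 2997 CPM of Mt2 and 10.7 to 3230 CPM of Lcn2. The classical reactants Saa1 (log2 1.18, SE 1.24, adjusted p = 0.527) and Hamp (log2 -2.22, SE 0.76, adjusted p = 0.0608) did not pass, Hamp reaching 0.0482 and 0.0383 without control-ASO mouse 1 or 3. Of 32 complement and coagulation genes 5 rose and 7 fell (10 and 4 under library totals). These are 15.6% and 21.9%, against 14.4% and 12.6% of all genes. There were 4 falls without day-133 mouse 2 or 4, and 3 rises without day-133 mouse 2 or 3 and when all 4 groups were fitted together. Of 24 iron genes 5 rose and 6 fell (8 and 4 under library totals, and 8 rises without control-ASO mouse 3).

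Kupffer cell and macrophage genes moved in both directions. Of 26, 9 fell and 5 rose (4 and 5 under library totals; 3 rises with limma voom), with summed levels of 617.2 to 758.5 CPM at day 133 and 389.1 to 765.8 CPM in the control-ASO mice. Vsig4, a complement receptor of resident Kupffer cells, was at 56.1, 60.3, 123 and 54.4 CPM at day 133 and 19, 23.7 and 30.1 CPM in the control-ASO mice (log2 -1.63, SE 0.22, adjusted p = 0.000256). Folr2, a folate receptor of resident macrophages, went from 8.83, 8.13, 7.31 and 7.89 to 0.107, 0.63 and 2.89 CPM (log2 -3.21, SE 0.50, adjusted p = 0.000639), and Cd163, the haemoglobin scavenger receptor, from 16.2, 17.3, 12 and 14.7 to 1.09, 3.82 and 5.99 CPM (log2 -2.06, SE 0.34, adjusted p = 0.000967). For all 3, every control-ASO mouse lay below every day-133 mouse. Clec4f, the most specific Kupffer lectin, fell with overlap (log2 -0.61, SE 0.19, adjusted p = 0.0274), and this call was lost under library totals and without day-133 mouse 1, 2 or 3 or control-ASO mouse 2; Adgre1, encoding F4/80, did not pass (log2 -0.42, SE 0.25, adjusted p = 0.227). Against them, Mpeg1, a pore-forming protein of macrophages, rose from 14.7, 14.7, 10.9 and 14 to 28, 41.5 and 54.8 CPM (log2 1.60, SE 0.20, adjusted p = 9.28e-05) and Cd9, a tetraspanin, from 8.2, 5.59, 4.21 and 2.68 to 13.8, 24.6 and 40.4 CPM (log2 2.34, SE 0.37, adjusted p = 0.0011). Gpnmb, a lysosomal glycoprotein of lipid-laden macrophages, was counted 1 time at day 133 and 121 times in the control-ASO mice (ratio 37.0, 95% interval 6.51 to 1473).

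Sinusoidal endothelial markers gave 3 rises and 3 falls among 24, near the shares of all genes. There were 5 falls without control-ASO mouse 6 and 5 rises under library totals. Lyve1 and Gpr182 changed by 1.92 and 1.82, and Clec4g and Ehd3 by -1.09 and -0.95 on the log2 scale. Stab2, a scavenger receptor of these cells, did not pass (log2 -0.04, SE 0.14, adjusted p = 0.867). Stellate cell markers gave 2 rises and 5 falls among 22 with a positive median (0.09), and 5 rises and 2 falls under library totals. Without control-ASO mouse 3, 4 rose; 1 rose without day-133 mouse 1, 2 or 4, without control-ASO mouse 1, 4, 5 or 6, with limma voom, with thinned counts and without a filter on low counts. Of these markers Lrat, which stores retinol, fell (log2 -0.93, SE 0.25, adjusted p = 0.013), and this call was lost under library totals and without day-133 mouse 4. Matrix genes rose in 9 of 33 cases and fell in 1 (median 0.70; 5 rises without control-ASO mouse 2, 5 or 6, 4 with limma voom and 15 under library totals; 2 falls without control-ASO mouse 1, 2 or 6 and with DESeq2, and none without day-133 mouse 3 and under library totals). Mmp12, macrophage elastase, was at 0, 0.169, 0.443 and 0.631 CPM at day 133 and 3.27, 6.21 and 17.6 CPM in the control-ASO mice (log2 4.63, SE 0.80, adjusted p = 0.0019). Col5a2 and Col3a1, fibrillar collagens, changed by 2.16 and 0.97, whereas Col1a1 overlapped and did not pass (log2 1.30, SE 0.82, adjusted p = 0.282), day-133 mouse 4 having 39.9 CPM and the others under 5 CPM. Without that mouse the adjusted p of Col1a1 was 0.00683. Of 6 tested neutrophil genes 3 rose (2 without any one of the day-133 mice or control-ASO mouse 2 or 6, and 1 when all 4 groups were fitted together), their sum being 8.81 to 16.6 CPM at day 133 and 26.3 to 51.3 CPM in the control-ASO mice. Of the 13 genes in that list Ly6g, Mpo, Camp, Ngp, Mmp8, Ltf and Il1r2 were not tested, so the sum leaves them out. Elane, neutrophil elastase, was at 8.83, 5.93, 10.4 and 5.84 and 19.9, 24.6 and 31.6 CPM (log2 1.74, SE 0.20, adjusted p = 4.89e-05). None of 8 tested T and NK cell genes passed with edgeR, 2 were lower at an unadjusted p of 0.05, DESeq2 called 1 lower, edgeR called 2 lower without day-133 mouse 1 and 1 without day-133 mouse 2 or control-ASO mouse 6 and with thinned counts, and Cd3e and Nkg7 were too low to be tested. Of 14 B and plasma cell genes 1 rose; none rose without day-133 mouse 2 or 3 or control-ASO mouse 3 or 5, with limma voom and without a filter on low counts, 2 rose without control-ASO mouse 2 and with DESeq2, 3 under library totals, and 1 fell without control-ASO mouse 5 and with limma voom. In this list Cd79a and Ms4a1 were too low to be tested. Of 6 red cell genes 3 rose, and 1 without day-133 mouse 2, 3 or 4; 1 fell without control-ASO mouse 1 or 3. Of 20 antigen presentation genes 4 rose, and 2 without day-133 mouse 1 or 3 and when all 4 groups were fitted together. In this list 1 fell without control-ASO mouse 4 or 6, with DESeq2 or limma voom and without a filter on low counts. Its summed level was 4393 to 4680 CPM (median 4536) at day 133 and 2952 to 4467 CPM (median 3593) in the control-ASO mice. Interferon-induced genes rose in 12 of 34 cases with no fall (median 0.64; 7 with limma voom; 1 fall with limma voom and without control-ASO mouse 4), led by Ifit1 (log2 1.83, SE 0.31, adjusted p = 0.000787), Ifi27 (log2 0.76, SE 0.14, adjusted p = 0.00113) and Irf1 (log2 1.11, SE 0.20, adjusted p = 0.00122). Among 18 chemokine genes 4 rose and 2 fell (7 rises under library totals). Cxcl1, which attracts neutrophils, was at 3.57, 4.91, 5.98 and 3.79 CPM and then 41.1, 62 and 426 CPM (log2 4.71, SE 0.96, adjusted p = 0.00777), Ccl9 changed by 1.25, and Ccl24, an eosinophil attractant, by -1.94. Of 9 fat cell markers 3 fell and 1 rose (1 fall without day-133 mouse 2 or 4 or control-ASO mouse 5 and without a filter on low counts, and 2 rises without day-133 mouse 4), and their summed level was 5127 to 6881 CPM at day 133 and 2775 to 5898 CPM in the control-ASO mice. The defining markers differed among the day-133 mice, with Plin1 at 1.68, 8.13, 0.443 and 21.5 CPM and Adipoq at 1.26, 0.339, 0 and 7.89 CPM, against at most 0.817 and 1.77 CPM in the control-ASO mice. Both are a small part of that sum, so it cannot be read as a level of fat cells. Untreated livers had 3322 to 7617 CPM of the same sum. Plin1 and Cfd were called lower, and Adipoq did not pass (adjusted p = 0.0247 with edgeR without control-ASO mouse 1). The part of fat cells in other results was not tested.

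Ribosomal protein genes rose and subunits of oxidative phosphorylation fell in part. Of 77 cytosolic ribosomal protein genes 37 rose and 1 fell (median 0.37; 57 and none under library totals; no fall without day-133 mouse 1, 3 or 4), with Rps27 at 141, 133, 149.5 and 142 CPM at day 133 and 278, 305 and 367 CPM in the control-ASO mice (log2 1.14, SE 0.12, adjusted p = 2.92e-05) and Rps12 changed by 1.49 on the log2 scale. Of 71 subunits of oxidative phosphorylation 20 fell and 1 rose (median -0.29; 8 and 5 under library totals; 12 falls without day-133 mouse 1, 2 or 4; no rise without day-133 mouse 2, 3 or 4 or control-ASO mouse 1, 2, 3 or 4 and when all 4 groups were fitted together). Heat shock protein genes gave 1 fall among 17, the mitochondrial chaperonin Hspd1 (log2 -0.92, SE 0.18, adjusted p = 0.00189). Without control-ASO mouse 1, 9 of them fell; 3 fell with DESeq2, and 2 without control-ASO mouse 5, with thinned counts and when all 4 groups were fitted together. Among 22 genes of the unfolded protein response 4 rose and 4 fell (2 falls without day-133 mouse 1 or 3, under library totals and without a filter on low counts, 2 rises with limma voom, and 2 rises and 1 fall when all 4 groups were fitted together); Atf5, a factor of the mitochondrial stress response, was at 75, 97.7, 83.7 and 54.1 CPM at day 133 and 339, 474 and 812 CPM in the control-ASO mice (log2 2.70, SE 0.25, adjusted p = 1.41e-05), while the chaperone Hspa5 did not pass (log2 -0.45, SE 0.33, adjusted p = 0.348).

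Clock genes differed between the groups, and the time of day of harvest is not given in the sources used here. Of 20 tested, 5 rose and 4 fell (median -0.19, 0.08 under library totals), and 2, 2 and 3 rose without day-133 mouse 1, 2 or 3 and 3 with limma voom. Nr1d1, the repressor REV-ERB alpha, was at 1.05, 1.35, 1.11 and 1.89 CPM at day 133 and 7.98, 24.3 and 35.4 CPM in the control-ASO mice (log2 3.95, SE 0.57, adjusted p = 0.000872). Dbp, an output factor that peaks with Nr1d1, was at 2.73, 1.52, 1.55 and 8.83 and 9.46, 93.8 and 107 CPM (log2 4.18, SE 1.03, adjusted p = 0.0183). Cry1, a repressor of the opposite phase, was at 31.3, 19.8, 21.7 and 20.8 and 1.76, 3.6 and 6.57 CPM (log2 -2.52, SE 0.28, adjusted p = 5.53e-05). The groups did not overlap for any of these 3 genes. The call of Dbp ended without day-133 mouse 1 or 2. Control-ASO mice 1 and 2 had 9.33 and 7.98 CPM of Nr1d1 and 9.46 and 11.6 CPM of Dbp, and the other 4 had at least 24.2 and 93.5 CPM. Clock phase is known to set the level of many liver genes, among them Cyp7a1, Alas1 and Por, and its part in the other differences was not tested.

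The 15 largest rises with a mean of at least 2 log2 CPM were Tceal5, Cyp3a16, H19, C1s2, Erich4, Bex1, Cyp3a41a, Ly6k, Afp, Alox5, Igdcc4, Akr1c18, Cyp2a4, Tspan8 and Gpc3. Tceal5, an X-linked transcription elongation factor-like gene, was counted 0 times at day 133 and 1052 times in the control-ASO mice, which had 4.56, 14.3 and 23.6 CPM, at least 107-fold higher. Erich4 was counted 1 time at day 133 and stood at 8.3, 17.3 and 23.7 CPM in the control-ASO mice, a ratio of 363 (95% interval 65.1 to 14356). Igdcc4, an immunoglobulin superfamily receptor also known as Nope and a surface marker of fetal hepatocytes, was counted 3 times at day 133, all in mouse 3, and stood at 8.78, 17.5 and 35.2 CPM (ratio 139, 95% interval 47.6 to 676). Untreated livers averaged 0.59 ± 0.959 CPM of Igdcc4 and Smyd3-ASO livers 1.16 ± 0.293 CPM. The calls of Alox5, Ly6k, Bex1 and Cyp3a16 ended with limma voom, and that of Ly6k also without day-133 mouse 1.

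The 15 largest falls under the same rule included Cyp2b10, Cabyr, Odf3, Nat8f5, Mug2, Cyp4a10, Cfd, Cyp4a14, Olig1, Cyp4a12b, Elovl3, Mfsd2a, Nrep and Gadd45g. Nat8f5, an acetyltransferase of the Nat8 family, was at 28.8, 14.2, 14.4 and 16.2 CPM at day 133 and 0.243, 0.902 and 1.84 CPM in the control-ASO mice (log2 -4.21, SE 0.43, adjusted p = 6.24e-05). Mug2, a murinoglobulin protease inhibitor, was at 163, 186, 193 and 175 and 8.9, 15.4 and 28 CPM (log2 -3.41, SE 0.27, adjusted p = 1.41e-05); Smyd3-ASO livers averaged 196 ± 32.6 CPM. Mug2 has near-identical copies, and it and Olig1 are among the 21 genes described above. Nrep, a regulator of cell migration, was at 33.8, 24.7, 16.2 and 69.7 and 3.18, 4.82 and 7.01 CPM (log2 -2.83, SE 0.38, adjusted p = 0.000505). Cabyr, a calcium-binding protein known from sperm, was at 53.2, 56.9, 5.76 and 99.5 CPM at day 133, with mouse 3 close to the highest control-ASO mouse at 5.45 CPM. Odf3, a sperm tail protein, rested on day-133 mouse 3 at 296 CPM against 3.57, 21.8 and 6.78 CPM in the other 3, and without that mouse its adjusted p was 0.111. Its call also ended without control-ASO mouse 2, 3, 4, 5 or 6. The calls of Cfd, Elovl3 and Gadd45g ended without day-133 mouse 2 or 4, and without control-ASO mouse 4 or 5. Those of Elovl3 and Gadd45g also ended without day-133 mouse 3 or control-ASO mouse 2, and that of Elovl3 without day-133 mouse 1 or control-ASO mouse 3. Smyd3, the target of the ASO used in the other arm, was at 5.47, 4.57, 2.66 and 4.26 CPM at day 133 and 3.11, 3.95 and 4.63 CPM in the control-ASO mice (log2 -0.13, SE 0.23, adjusted p = 0.713); of its 4 tested relatives, Smyd2 fell (log2 -0.50, SE 0.17, adjusted p = 0.0421), and this call was lost under library totals and without any one of the day-133 mice.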

How the data were processed

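Libraries of 3' tags (QuantSeq 3' mRNA-Seq FWD) were read on a NextSeq 500, per the labels. Reads were aligned with HISAT2 2.1.0 to mm10 per the submitters' processing notes, which also name DESeq. The counting program and annotation are not given in the sources used here. The authors deposited raw counts per gene for 21 mice, with libraries of a mouse merged; all 55413 gene identifiers matched GENCODE release M21, from which names, types and coordinates came. Groups came from the sample labels, which call the mice biological replicates. The authors' normalized table was not used.

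Genes kept by filterByExpr over the 4 groups were fitted for the 10 mice with edgeR 4.0.16 (TMM, quasi-likelihood test, Benjamini-Hochberg adjustment over all 15297 genes, threshold 0.05; R 4.3.3). SE is the log2 change divided by the square root of F. Alternatives used other scalings, DESeq2 1.42.0, limma 3.58.1 voom, other filters, all 4 groups, counts thinned to equal depth, a replicate block, and each mouse left out. The fit was tested on simulated data. Levels are CPM with TMM factors over all 21 mice. A mean ± SD is over 5 untreated or 6 Smyd3-ASO mice. A gene with 0 counts at day 133 is given as a lower bound, its pooled control-ASO level over 3 counts in the day-133 group. One with 1 to 3 counts is given as a ratio with an exact 95% interval that covers counting error only. Neither the bound nor the interval covers the spread between mice. Promoters came from RefSeq on GRCm38.p6, and motifs were searched on both strands. Day-133 mice had 4556484 to 6447397 counts and control-ASO mice 6789715 to 13805881. No replicate pair agreed within sampling noise.

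Members and gene lists were chosen with earlier results of these data known. Genes named are the 4 markers, the 15 largest rises and falls with a mean of at least 2 log2 CPM, leaving out pseudogenes and unnamed genes, up to 6 members per list with the smallest adjusted p, members that moved against their list, and fixed cell type markers. Other genes named, such as Alas1, Alb, Cyp2e1, Cyp7a1, Dbp, Dlk1, Fos, Mki67, Top2a, Ube2c, Ctse, Paox and most of those given as not passed, were chosen after their values were seen. Some genes that this rule selects are not reported here.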

Additional observations from a re-analysis of the deposited data

Results flagged for a closer look

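The highest or lowest mouse stood apart from the rest of its group for 29 of 400 combinations of a named gene and a group of DEN mice. The measure was the gap to the nearest other mouse relative to the range of the group, both on log2 CPM, while values below are CPM. About 1 in 20 such groups is expected to stand out by chance. In 9 of the 29 all other mice of the group were at 0, so that the single value above 0 stands apart by construction and that rate does not apply. In day-133 mouse 1 the highest value stood apart for Bex1 (0.42 CPM, others 0), C1s2 (0.21 CPM, others 0), Junb (9.25 CPM, others 5.05 to 5.54), Ly6k (0.21 CPM, others 0) and Phgdh (0.42 CPM, others 0). In day-133 mouse 2 the highest value stood apart for Cyp2b9 (1.52 CPM, others 0.631 to 0.665) and Tnni2 (0.339 CPM, others 0). In day-133 mouse 2 the lowest value stood apart for Mki67 (0.169 CPM, others 0.42 to 0.473). In day-133 mouse 3 the highest value stood apart for Cpt2 (98.4 CPM, others 71.5 to 72.3), Erich4 (0.222 CPM, others 0), Gpnmb (0.222 CPM, others 0), Igdcc4 (0.665 CPM, others 0), Rnf43 (3.1 CPM, others 1.89 to 2.03) and Vsig4 (123 CPM, others 54.4 to 60.3). In day-133 mouse 3 the lowest value stood apart for Mpeg1 (10.8 CPM, others 14 to 14.7). In day-133 mouse 4 the highest value stood apart for Alox5 (0.158 CPM, others 0) and Col1a1 (39.9 CPM, others 3.36 to 4.43). In day-133 mouse 4 the lowest value stood apart for Clec4f (17.7 CPM, others 25.4 to 26.9) and Cyp4a12b (120.5 CPM, others 144 to 147). In control-ASO mouse 1 the highest value stood apart for Adipoq (1.77 CPM, others 0 to 0.336), Angptl4 (43.9 CPM, others 14.8 to 20.2), Cxcl1 (426 CPM, others 41.1 to 65) and Tnni2 (140.5 CPM, others 0 to 0.283). In control-ASO mouse 3 the highest value stood apart for Nctc1 (58.2 CPM, others 1.26 to 5.04), Paox (5.28 CPM, others 1.62 to 2.36) and Slc38a4 (344 CPM, others 212 to 249). In control-ASO mouse 3 the lowest value stood apart for Cyp3a41a (10.9 CPM, others 33.9 to 65.8). In control-ASO mouse 4 the lowest value stood apart for Mki67 (0.924 CPM, others 1.89 to 2.59). In control-ASO mouse 6 the highest value stood apart for Cdkn1c (3.65 CPM, others 1.77 to 2.31).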

How the results depend on the processing

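Several results moved with the processing, and the cause was not tested. With library totals, 3839 genes rose and 985 fell against 2200 and 1932, 114 list members fell against 177, and 2892 genes lay above and 706 below without overlap against 1741 and 1515. The replicate numbers of the labels do not pair the mice: the deviations of same-numbered mice correlated at -0.013 to 0.006, and no mouse correlated best with its own number. A fit with that number as a replicate block called 2530 genes (1396 rose, 1134 fell). Leaving out each mouse in turn gave 3137 to 4318 genes called, 1650 to 2279 that rose and 1439 to 2039 that fell. It gave 1826 to 2155 genes above and 1587 to 1898 below without overlap, and 317 to 443 list members called, of which 176 to 239 rose and 133 to 209 fell. The log2 change ranged from 6.78 to 7.67 for Afp, 3.19 to 3.71 for Plk1, -6.04 to -4.96 for Cyp2b10 and 6.52 to 6.99 for Cyp2a4. None of the genes named changed direction as a called gene under these alternatives. Of the genes named in the text, fitting all 4 groups together ended the calls of Aurka, Clec4f, Col3a1, Cyp7a1, Dlk1, Gadd45g, Hmox1, Lcn2, Lifr, Myc, Serpina1e and Smyd2, limma voom those of Alox5, Aurka, Bex1, Cyp2b13, Cyp3a16, Dbp, Dlk1, Gm49394, Igf2, Ly6k, Mmp12, Myc, Odf3, Plin1 and Spink1, and no filter on low counts those of Cfd, Cyp2e1, Cyp3a16, Cyp7a1, Dlk1, Dusp6, Elovl3, Errfi1, Gadd45g, Onecut1 and Smyd2. Day-133 mice had fewer counts, which limits genes at or near 0 there to bounds or wide intervals.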

Other observations

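A few genes outside the lists also had almost no reads at day 133, and they were chosen after their values were seen. Shc2, an adaptor of receptor tyrosine kinases, was counted 3 times over the 4 day-133 mice and stood at 4.49, 11.4 and 15.9 CPM (lowest, median and highest) in the control-ASO mice, a ratio of 78.6 (95% interval 26.8 to 382), with 1.14 ± 0.741 CPM (mean ± SD) in Smyd3-ASO livers and 0 in every untreated liver. Phgdh, the first enzyme of serine synthesis, was counted 2 times at day 133 and stood at 1.38, 2.99 and 9.11 CPM in the control-ASO mice (ratio 39.1, 95% interval 10.7 to 325). Csn3, a milk casein, had 0 counts at day 133 and 2.11, 4.3 and 10.6 CPM in the control-ASO mice, at least 35.0-fold higher. All 3 were called higher, without overlap between the groups.

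The neighbourhood of H19 on chromosome 7 held further RNAs that were at or near 0 at day 133 but differed mouse by mouse at day 260. Nctc1, a long RNA beside H19, had 0 counts at day 133 and 1.26, 4.26 and 58.2 CPM in the control-ASO mice, at least 69.0-fold higher; mouse 3 held the highest value, and the gene did not pass (log2 9.82, SE 3.87, adjusted p = 0.126). Without mouse 3 it was at least 24.6-fold higher and passed (log2 8.03, adjusted p = 0.000354 with edgeR), as it did when all 4 groups were fitted together (adjusted p = 0.00758). Mir675, whose hairpin lies within H19, had 0 counts at day 133 and 0.545, 1.68 and 32.7 CPM, with mouse 6 highest as for H19 itself; it did not pass either (log2 9.07, SE 3.91, adjusted p = 0.154). Without mouse 6 it passed (log2 7.27, adjusted p = 0.0178), as it did with DESeq2 (adjusted p = 0.000111) and when all 4 groups were fitted together (0.0395), and its reads cannot be told apart from those of H19. Tnni2, a troponin gene of fast muscle in the same region, was at 140.5 CPM in control-ASO mouse 1 and below 1 CPM in each of the other 9 mice, and it did not pass (log2 7.82, SE 4.08, adjusted p = 0.196).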
